A study of Mus musculus with 10 samples.

Results

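Activity-induced genes are often read as a gauge of recent neuronal firing, and 10 of them were examined in the injured neonatal brain: Egr1, Egr2, Egr3, Egr4, Nr4a1, Nr4a3, Arc, Npas4, Klf4 and Dusp1. They were chosen by gene symbol, each matched 1 Ensembl identifier among the 55471 in the table, and all 10 passed the filter on low counts that left 17101 genes. RNA came from the brains of 10 Swiss Webster mouse pups labelled as wild type, whole brain and neonatal day 5, all with hypoxic-ischemic injury, a loss of both blood supply and oxygen. Allopregnanolone, a steroid that acts on GABA-A receptors, had been given to 5 pups (numbers 6 to 10), and 5 pups (numbers 1 to 5) had the injury and no treatment. An uninjured group was not analysed here, and the labels do not settle whether day 5 was the day of injury or of collection. Each pup gave 1 library, and nothing in the labels ties pups to litters.

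When a neuron is strongly excited, calcium entry activates kinases that act on factors already bound to DNA, such as CREB and SRF, and a set of genes is transcribed within minutes without new protein synthesis. Many of these immediate early genes encode transcription factors, among them the zinc finger EGR proteins, the NR4A orphan nuclear receptors and the neuron-restricted factor Npas4. Others act directly, such as Arc, a synaptic protein that promotes removal of AMPA receptors, and Dusp1, a phosphatase that switches off MAP kinases. Several are also induced by growth factors, stress and blood flow in glial and vascular cells, so in RNA of a whole tissue their source is not given.

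Promoter windows are shown for 5 of the genes, because textbook accounts of the family name CREB and SRF sites. RefSeq windows on GRCm38.p6 were found for 7 of the 10 genes and not for Egr1, Egr3 and Arc. The 250 bases before the start are printed 5′ to 3′ on the gene's strand, and capitals mark the CRE core TGACG, on either strand, and the CArG box bound by SRF.
Egr2: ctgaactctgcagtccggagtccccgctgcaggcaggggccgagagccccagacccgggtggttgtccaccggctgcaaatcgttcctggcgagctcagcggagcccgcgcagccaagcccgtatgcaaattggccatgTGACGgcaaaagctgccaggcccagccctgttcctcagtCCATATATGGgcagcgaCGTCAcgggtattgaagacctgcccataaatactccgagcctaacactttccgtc
Egr4: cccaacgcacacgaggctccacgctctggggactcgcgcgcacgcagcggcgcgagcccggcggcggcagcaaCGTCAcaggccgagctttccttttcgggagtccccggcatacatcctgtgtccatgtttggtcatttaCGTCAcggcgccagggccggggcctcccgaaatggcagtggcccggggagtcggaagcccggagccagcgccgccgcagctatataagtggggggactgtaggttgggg
Nr4a1: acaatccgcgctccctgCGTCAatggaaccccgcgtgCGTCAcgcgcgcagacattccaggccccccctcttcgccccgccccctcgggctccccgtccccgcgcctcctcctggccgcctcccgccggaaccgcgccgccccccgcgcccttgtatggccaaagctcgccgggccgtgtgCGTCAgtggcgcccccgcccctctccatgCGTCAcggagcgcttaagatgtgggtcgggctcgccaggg
Nr4a3: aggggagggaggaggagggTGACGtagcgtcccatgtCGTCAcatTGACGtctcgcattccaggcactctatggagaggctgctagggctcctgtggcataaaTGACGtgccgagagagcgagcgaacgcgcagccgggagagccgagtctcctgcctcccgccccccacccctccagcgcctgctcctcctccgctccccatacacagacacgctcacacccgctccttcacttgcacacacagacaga
Klf4: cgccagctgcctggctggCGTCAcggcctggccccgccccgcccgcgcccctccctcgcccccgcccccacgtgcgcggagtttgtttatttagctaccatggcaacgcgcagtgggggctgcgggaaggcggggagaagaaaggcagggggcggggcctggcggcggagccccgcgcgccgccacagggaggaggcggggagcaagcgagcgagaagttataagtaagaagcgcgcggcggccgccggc
These windows lie at chr10:67537619-67537868 (+ strand) for Egr2, chr6:85513590-85513839 (- strand) for Egr4, chr15:101266596-101266845 (+ strand) for Nr4a1, chr4:48045055-48045304 (+ strand) for Nr4a3 and chr4:55532476-55532725 (- strand) for Klf4. Nr4a1 and Nr4a3 each hold 4 CRE cores, Egr4 holds 2 and Klf4 holds 1. The Egr2 window holds 2 CRE cores and 1 CArG box, and it is the first of the windows with the most matches among 5 listed for that gene, of which 2 hold no CRE core. Npas4 has 2 CRE cores, and Dusp1 has 3, a pair of which form 1 full CRE (TGACGTCA). No CArG box was found in the windows of genes other than Egr2. Over windows of 300 bases at all 32851 starts in the table, 20.8% hold a CRE core, 1.79% a full CRE and 1.63% a CArG box. The letters GCGTGGGCG, an EGR site, occur in 0.612% of all windows and in none of those of the 7 genes. A match is a string of letters and does not show binding.

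With allopregnanolone, 1 of the 10 genes rose (Klf4), 2 fell (Egr3 and Nr4a3) and 7 did not pass an adjusted p of 0.05. Over all genes tested, 11.3% passed, 6.61% higher and 4.65% lower with allopregnanolone. For none of the 10 were the groups free of overlap, against 9.64% of all genes tested. The median log2 fold change of the 10 was -0.21, against 0.00 for all genes, with 4 positive and 6 negative. In bulk tissue, fewer cells of a type and less RNA per cell cannot be told apart.

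**Figure D1:**
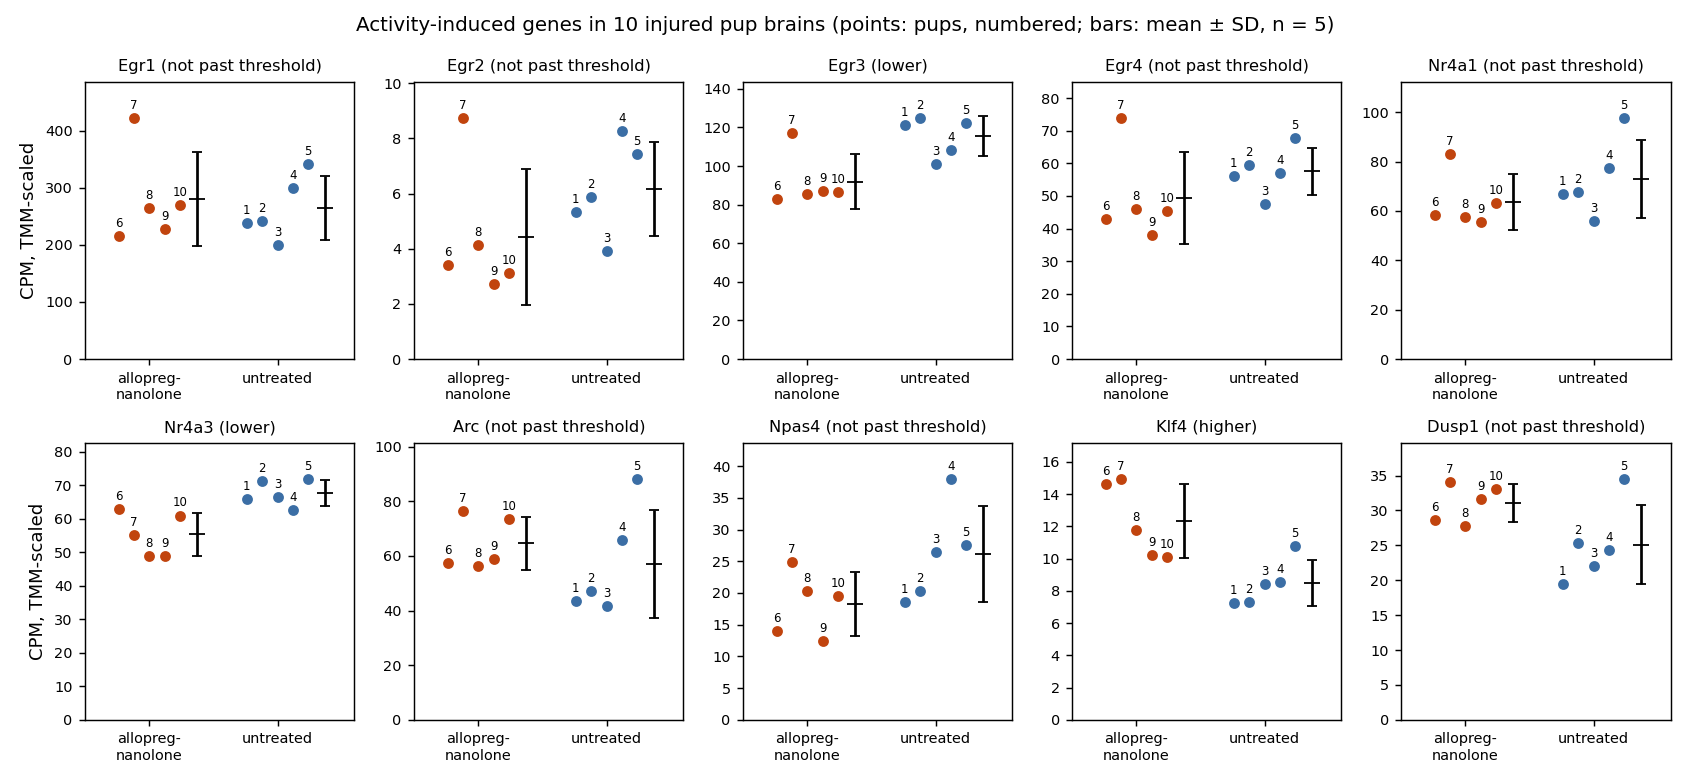
TMM-scaled CPM (read counts scaled to library size) of the 10 genes in each pup, allopregnanolone on the left and untreated on the right, with pup numbers beside the points and the mean ± SD (n = 5) beside each group. Treated pup 7 is the highest of its group in every panel except Nr4a3, and the groups overlap in all 10 panels.

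Several library and tissue values differed between pups. Library totals ranged from 18656800 to 34270700 estimated counts. The 9 oligodendrocyte markers all rose with allopregnanolone, and their summed level was 2900 to 3929 CPM in treated pups and 986 to 1841 CPM in untreated pups, with no overlap and no marker at 0; the part of oligodendrocyte content in the results was not tested. The 9 midbrain markers tested of 10 all rose as well, with sums of 15.9 to 113 CPM in treated pups and 7.97 to 21.1 CPM in untreated pups. After rounding to whole counts, the 5 Hox genes of the hindbrain were at 0 in 44 of 50 values. They reached at most 1.22 CPM, in treated pup 6, although the label is whole brain. Untreated libraries 1, 2 and 3 carry another name prefix than the other 7, and no treated library shares it, so for these libraries prefix and group cannot be told apart. Y-linked transcripts were present in 4 of 5 pups of each group.

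Among the EGR factors, zinc finger proteins that bind GC-rich sites, Egr3 was the one that fell. Egr3 (ENSMUSG00000033730, chr14:70077203-70082614, + strand) is a transcription factor needed for muscle spindle development and induced by neuronal activity. It was measured at 83.1, 117, 85.3, 86.9 and 86.4 CPM (counts scaled to library size) in treated pups 6 to 10, against 121, 125, 101, 108 and 122 CPM in untreated pups 1 to 5. Treated pup 7 lay among the untreated pups, and the other 4 treated pups lay below all of them. The mean was 91.8 ± 14.3 CPM with allopregnanolone and 115 ± 10.2 CPM in untreated pups (SD, n = 5 each), 1.26-fold lower with allopregnanolone, log2 fold change -0.33 (SE 0.09, adjusted p = 0.0350, edgeR). Without treated pup 7 the log2 fold change was -0.44 (adjusted p = 0.00245, edgeR).

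That call depended on the libraries kept. It was lost on leaving out untreated pup 1, 2, 4 or 5 or treated pup 6, 8, 9 or 10, one at a time. In those fits the log2 fold change was -0.36 to -0.30 (adjusted p 0.0509 to 0.0759, edgeR). The call was also lost with 2 untreated against 5 treated libraries of 1 name prefix (log2 fold change -0.33, adjusted p = 0.238, edgeR). With the midbrain markers as a covariate the log2 fold change was -0.47 (adjusted p = 0.127), and with the endothelial markers -0.43 (adjusted p = 0.0707).

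Egr1 (ENSMUSG00000038418, chr18:34859823-34864984, + strand), also called Zif268, is the most widely used of these genes as a mark of active neurons. It was measured at 216, 422, 264, 229 and 269 CPM in treated pups, against 238, 243, 199, 300.3 and 342 CPM in untreated pups. Treated pup 7 was the highest of all 10 and untreated pup 3 the lowest, and the other treated pups lay within the untreated range. Its log2 fold change 0.08 (SE 0.17, adjusted p = 0.808, edgeR) did not pass the threshold, and its sign was negative without treated pup 7 (-0.12), without untreated pup 3 (-0.01) and without the 3 libraries of another prefix (-0.20).

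Egr2 (ENSMUSG00000037868, chr10:67535475-67542188, + strand), known as Krox20 for its role in hindbrain patterning and in myelinating Schwann cells, was the lowest of the 10 genes, with 59 to 179 counts a library. It was measured at 3.40, 8.73, 4.12, 2.72 and 3.12 CPM in treated pups, against 5.35, 5.86, 3.92, 8.27 and 7.43 CPM in untreated pups. Treated pup 7 lay above every untreated pup, while 3 treated pups lay below all of them. Its log2 fold change -0.50 (SE 0.29, adjusted p = 0.301, edgeR) did not pass, and without treated pup 7 it was -0.89 (adjusted p = 0.0248, edgeR). Egr2 missed the threshold in the other 22 of 23 alternatives. Within 1 name prefix the log2 fold change was -0.85 (adjusted p = 0.293, edgeR).

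Egr4 (ENSMUSG00000071341, chr6:85511121-85513589, - strand) is the EGR member without the binding site for NAB corepressors. It was measured at 43.1, 73.8, 46.0, 38.1 and 45.4 CPM in treated pups, against 56.2, 59.4, 47.4, 57.1 and 67.7 CPM in untreated pups. Again pup 7 was above every untreated pup and the other 4 treated pups were below all of them. For Egr4 the log2 fold change -0.23 (SE 0.15, adjusted p = 0.350, edgeR) did not pass, and without treated pup 7 it was -0.42 (adjusted p = 0.0162, edgeR). Egr4 also missed the threshold in the other 22 of 23 alternatives. Within 1 name prefix the log2 fold change was -0.35 (adjusted p = 0.434, edgeR).

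Ratios within a family were compared, since depth is shared by both genes of a library; this test was added after the values were seen. The mean log2 ratio of Egr1 to Egr2 was 6.08 in treated pups and 5.44 in untreated pups, a difference of 0.64. The difference was 0.32 for Egr1 over Egr4 and 0.40 for Egr1 over Egr3. An exact two-sided permutation test over all assignments of pups to groups, whose smallest p is 0.00794, gave p = 0.0159, 0.0238 and 0.0476 for those 3 ratios, and adjusted over 7 ratios they were 0.0833, 0.0833 and 0.111, so none passed. Egr3 over Egr4 differed by -0.08 (exact permutation p = 0.413).

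Of the NR4A receptors, which bind DNA without a known natural ligand, Nr4a3 fell. Nr4a3 (ENSMUSG00000028341, chr4:48045153-48086447, + strand), also called NOR-1, was measured at 62.8, 55.2, 49.0, 48.8 and 61.0 CPM in treated pups, against 66.0, 71.3, 66.5, 62.8 and 71.9 CPM in untreated pups. Treated pup 6 and untreated pup 4 were level, and the other 4 treated pups lay below every untreated pup. The mean was 55.4 ± 6.54 CPM with allopregnanolone and 67.7 ± 3.82 CPM in untreated pups (SD, n = 5 each), 1.22-fold lower with allopregnanolone, log2 fold change -0.29 (SE 0.08, adjusted p = 0.0266, edgeR). The call was lost without untreated pup 2, treated pup 8 or treated pup 9 (adjusted p 0.0529 to 0.0578, edgeR). Within 1 name prefix the log2 fold change was -0.28 (adjusted p = 0.251, edgeR), and it was -0.38 with the midbrain covariate (adjusted p = 0.132) and -0.30 with the endothelial one (adjusted p = 0.118).

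Nr4a1 (ENSMUSG00000023034, chr15:101254269-101274795, + strand), or Nur77, is induced by activity in neurons and by antigen receptors in lymphocytes. It was measured at 58.4, 83.2, 57.5, 55.6 and 63.1 CPM in treated pups, against 66.9, 67.5, 55.7, 77.5 and 97.5 CPM in untreated pups. Untreated pup 5 was the highest and treated pup 7 came next, and the groups overlapped widely. The log2 fold change -0.20 (SE 0.14, adjusted p = 0.378, edgeR) did not pass. Nr4a2, the remaining NR4A gene and a factor of midbrain dopamine neurons, was looked at after the values were seen; it averaged 52.2 ± 16.1 CPM with allopregnanolone and 62.9 ± 10.2 CPM in untreated pups (SD, n = 5 each) and did not pass, log2 fold change -0.27 (SE 0.16, adjusted p = 0.317, edgeR). The mean log2 ratio of Nr4a1 to Nr4a3 differed by 0.11 between the groups (exact permutation p = 0.540).

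The neuronal genes Arc and Npas4 did not pass. Arc (ENSMUSG00000022602, chr15:74669083-74672570, - strand) was measured at 57.4, 76.4, 56.4, 59.0 and 73.6 CPM in treated pups, against 43.4, 47.0, 41.7, 65.7 and 88.1 CPM in untreated pups. The treated pups were close together, and the untreated pups held both the lowest values and, in pup 5, the highest. For Arc the log2 fold change 0.17 (SE 0.18, adjusted p = 0.578, edgeR) turned to -0.26 within 1 name prefix. Npas4 (ENSMUSG00000045903, chr19:4984355-4990316, - strand), a factor that adjusts inhibitory synapses, was measured at 14.0, 24.9, 20.4, 12.4 and 19.5 CPM in treated pups, against 18.6, 20.3, 26.5, 37.9 and 27.5 CPM in untreated pups. Of the untreated pups 3 lay above every treated pup, and 2 treated pups lay below every untreated pup. For Npas4 the log2 fold change -0.53 (SE 0.20, adjusted p = 0.110, edgeR) was negative in all 23 alternative analyses, with adjusted p between 0.0617 and 0.655.

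Klf4, a zinc finger factor of pluripotent cells and of endothelium that is also induced in neurons, was the gene that rose. Klf4 (ENSMUSG00000003032, chr4:55527143-55532466, - strand) was measured at 14.6, 14.9, 11.8, 10.2 and 10.1 CPM in treated pups, against 7.26, 7.28, 8.44, 8.55 and 10.8 CPM in untreated pups. Treated pups 6, 7 and 8 lay above every untreated pup, and untreated pup 5 lay above treated pups 9 and 10. The mean was 12.3 ± 2.32 CPM with allopregnanolone and 8.46 ± 1.43 CPM in untreated pups (SD, n = 5 each), 1.46-fold higher with allopregnanolone, log2 fold change 0.55 (SE 0.14, adjusted p = 0.0266, edgeR). The call was lost without untreated pup 1, 2, 3 or 4 or treated pup 6 or 7 (adjusted p 0.0548 to 0.0655, edgeR). Within 1 name prefix the log2 fold change was 0.35 (adjusted p = 0.390, edgeR).

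Klf4 is also an endothelial gene, so endothelial markers are given beside it. Of 11 such markers 2 rose (18.2%, against 11.3% of all genes called), Ly6c1 (log2 fold change 0.48) and Flt1, a VEGF receptor (0.29), and 9 did not pass, Slco1a4 and Esam among them. Their summed level was 219 to 262 CPM in treated pups and 214 to 231 CPM in untreated pups, with overlap and with none at 0. Treated pups 6 and 7 had the highest endothelial sums and the highest Klf4. They also had the highest sums of the midbrain markers, at 113 and 86.8 CPM. With the endothelial markers as a covariate the log2 fold change of Klf4 was 0.28 (adjusted p = 0.328, edgeR), and with the midbrain markers 0.31 (adjusted p = 0.501). In treated pup 6 the sum of 7 meningeal and fibroblast markers was 895 CPM, against 306 to 405 CPM in untreated pups. Treated pup 7 had 330 CPM in that sum. The part of endothelial, midbrain or meningeal content in the level of Klf4 was not tested.

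Dusp1 (ENSMUSG00000024190, chr17:26505590-26562128, - strand) was measured at 28.7, 34.1, 27.8, 31.6 and 33.1 CPM in treated pups, against 19.4, 25.3, 22.1, 24.3 and 34.5 CPM in untreated pups. Treated pups were above 4 of the untreated pups, and untreated pup 5 was above all treated pups. The log2 fold change 0.31 (SE 0.12, adjusted p = 0.129, edgeR) did not pass, and without untreated pup 5 it was 0.45 (adjusted p = 0.00719, edgeR). Within 1 name prefix it was 0.07 (adjusted p = 0.824, edgeR), and Dusp1 missed the threshold in 20 of 23 alternatives. Dusp1 is also a classical target of the glucocorticoid receptor. Of 15 other glucocorticoid-responsive genes 10 rose and none fell (66.7% called, against 11.3% of all genes), with a median log2 fold change of 0.84. The 4 with the smallest p were Mertk (1.25), a phagocytosis receptor, Tsc22d3 (1.13), which encodes GILZ, Hif3a (1.02) and Sult1a1 (1.54). The summed level of the 15 was 725 to 1079 CPM in treated pups and 606 to 683 CPM in untreated pups, without overlap. Without the 3 libraries of another name prefix 4 of the 15 rose. The part of these genes' inducers in the level of Dusp1 was not tested.

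**Figure D2:**
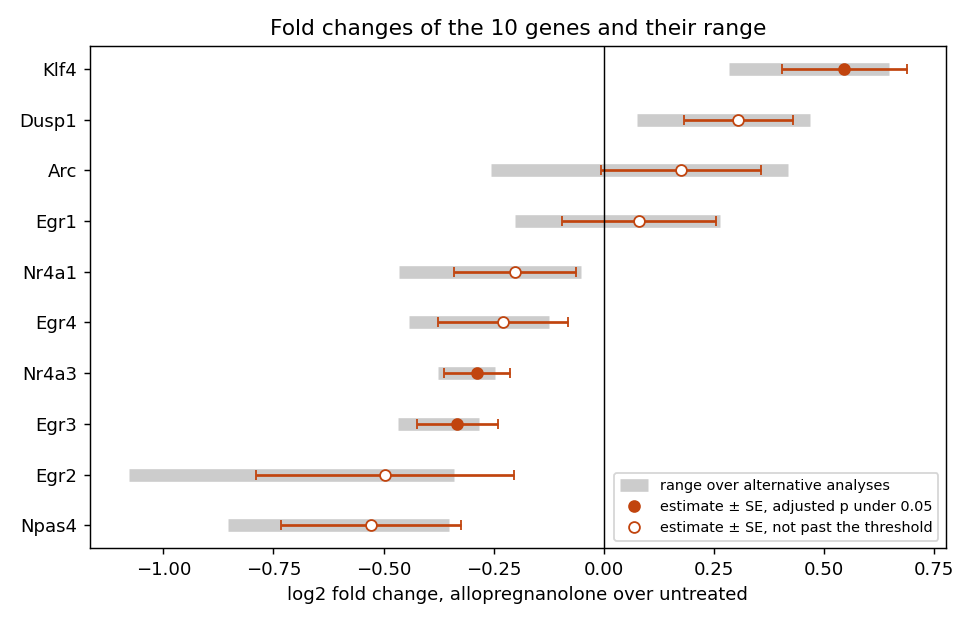
Log2 fold change, allopregnanolone over untreated, of the 10 genes, with SE as whiskers and the range over 23 alternative analyses as grey bars; filled points passed an adjusted p of 0.05. Egr3, Nr4a3 and Klf4 are filled, and the bars of Egr1 and Arc cross 0.

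Per kilobase of exon, Egr1 stood far above the others, with 62.4 ± 18.4 CPM per kb in treated pups and 59.0 ± 12.5 in untreated pups (SD, n = 5 each), above the next gene in 10 of 10 pups. Egr4, Arc, Egr3 and Nr4a1 followed at 18.1 to 22.9 CPM per kb in treated pups and 18.7 to 26.8 in untreated pups, and the order of Egr4, Arc and Egr3 was not the same in all pups. Dusp1 and Nr4a3 came next, at 9.38 and 9.25 CPM per kb in treated pups and 7.59 and 11.3 in untreated pups. Npas4 and Klf4 lay lower, and Egr2 was lowest with 1.30 ± 0.725 in treated pups and 1.82 ± 0.506 in untreated pups.

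Pups of 1 group differed in most of the 10 genes at once. Treated pup 7 was the highest treated pup for 9 of 10 genes, with a mean deviation of 0.41 (log2) from its group, and it was highest for 20.5% of all genes tested. Untreated pup 5 was the highest untreated pup for 7 of 10, with a mean deviation of 0.31, against 24.0% of all genes. The lowest were treated pup 9 for 5 genes, against 18.1% of all genes, and untreated pup 3 for 6, against 17.1%. Treated pup 7 was also the highest treated pup for 7 of 9 general neuron markers, whose sums were 7000 to 7644 CPM in treated pups and 6566 to 7359 CPM in untreated pups. For excitatory neuron markers it was highest for 2 of 8. Their sums were 3798 to 4814 CPM in treated pups and 3413 to 4250 CPM in untreated pups. Treated pup 7 had the highest of these sums, and treated pup 8 had 4786 CPM. Among untreated pups, pup 5 was highest for 3 of the 9 general neuron markers and pup 2 for 5. The library of treated pup 7 had the lowest total of all 10 pups (18656800) and the lowest TMM factor (0.953). That of untreated pup 5 had a total of 22754500 and a TMM factor of 0.988. The part of neuron content, library size, scaling, handling or RNA quality in the deviations of the 10 genes was not tested.

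**Figure D3:**
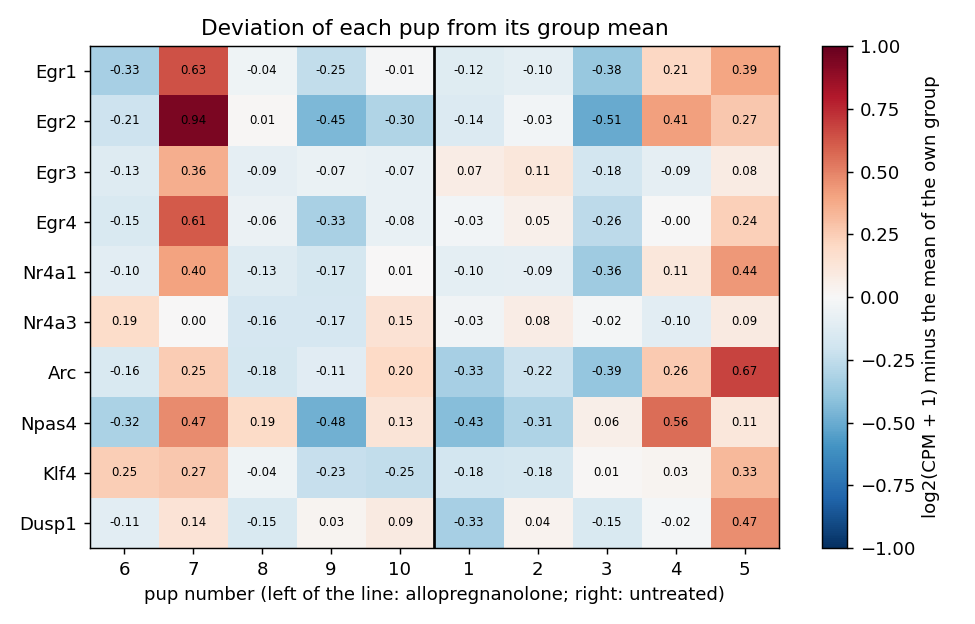
Deviation of log2(CPM + 1) from the mean of the pup's own group for the 10 genes (rows) in each pup (columns, allopregnanolone left of the line). Treated pup 7 and untreated pup 5 are mostly red, and untreated pup 3 and treated pup 9 mostly blue.

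After the group means were removed, Egr1 and Nr4a1 varied together over the 10 pups, with Pearson r 0.943 and Spearman rho 0.891. For Egr1 with Egr2 r was 0.924 and rho 0.842, for Egr1 with Egr4 0.917 and 0.818, and for Egr1 with Arc 0.797 and 0.782. Without treated pup 7 and untreated pup 5, the farthest from the median of Egr1, these r were 0.864, 0.835, 0.703 and 0.744. The r of Egr1 with Egr3 was 0.762 with all pups and 0.285 without those 2, so it rests on them. Nr4a3 stood apart, with r between -0.115 and 0.313 to the other 9 genes. These are descriptions over 10 libraries, picked out among 45 pairs. The genes of a library share its depth and RNA handling.

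**Figure D4:**
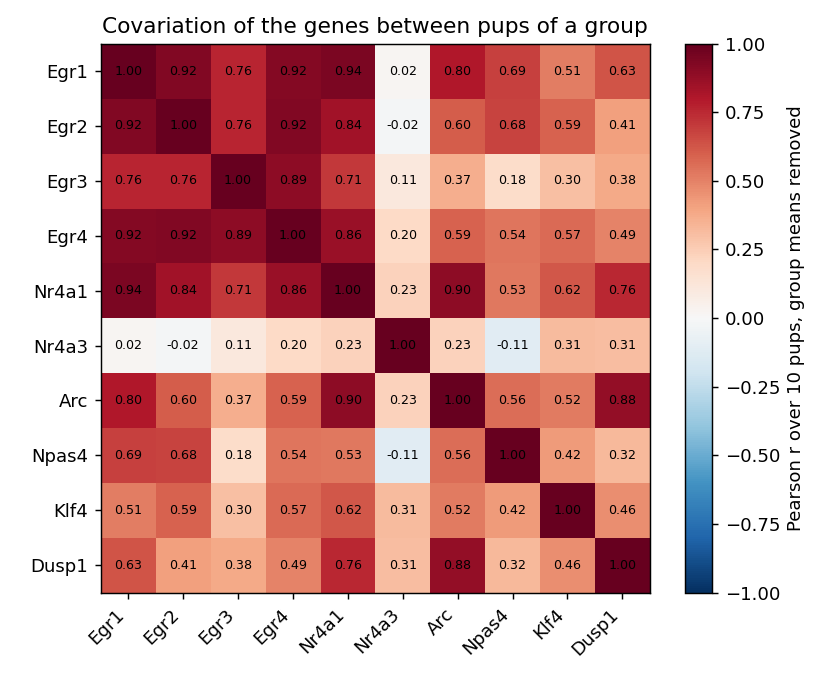
Pearson r between the 10 genes over the 10 pups after removal of group means. Egr1, Egr2, Egr4 and Nr4a1 form a block of high values that reach 0.943, and the row of Nr4a3 stays at or below 0.313.

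Among 14535 named genes, those whose deviations were most like Egr1 over the 10 pups included Art3 (r 0.962), Nr4a1 (0.943) and Fam126b (0.934). For Nr4a3 they were the Wnt inhibitor gene Wif1 (0.980), Irf3 (0.937), Hps1 (0.923), Nfia (0.916) and Gdpd2 (0.906). For Klf4 they were Ift27 (0.947), Ino80e (0.944), B3gnt9 (0.941), Chd6 (0.931) and Frs2 (0.923). These are the largest values picked from 14535 genes over 10 libraries, so high r can arise by selection alone, and shared regulation was not tested.

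Other genes of the pathway moved in both directions, and few of the calls held in every alternative. Of the genes called in the 4 lists given next, Mrtfa and Rxra passed with the midbrain covariate, and Rxra alone passed without the 3 libraries of another name prefix. Of 29 other rapid activity-induced regulators 3 rose, 3 fell and 23 did not pass (20.7% called, against 11.3% of all genes), with a median log2 fold change of -0.04. Klf2, a shear-stress factor of endothelium, averaged 25.0 ± 2.72 CPM with allopregnanolone and 15.8 ± 2.23 CPM in untreated pups (SD, n = 5 each; log2 fold change 0.66, SE 0.10, adjusted p = 0.00215, edgeR). The AP-1 genes Jun and Jund rose as well, with log2 fold changes of 0.40 and 0.27. Klf10, a TGF-beta response factor, fell by 0.49 on the log2 scale, and Fosl2 and Klf6, named after their values were seen, fell by 0.38 and 0.22. Fos, the best known of these genes, was also looked at after the fact; it averaged 15.8 ± 4.05 CPM with allopregnanolone and 20.5 ± 5.86 CPM in untreated pups (SD, n = 5 each) and did not pass, log2 fold change -0.38 (SE 0.19, adjusted p = 0.227, edgeR).

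Of 18 activity-induced effectors 1 rose, 2 fell and 15 did not pass (16.7% called, against 11.3% of all genes), with a median of -0.06. Inhba, which encodes an activin subunit, averaged 5.78 ± 1.29 CPM with allopregnanolone and 10.0 ± 1.46 CPM in untreated pups (SD, n = 5 each; log2 fold change -0.80, SE 0.15, adjusted p = 0.00626, edgeR). Syt4, a synaptotagmin, fell by 0.24 on the log2 scale, and Nptx2, a pentraxin that clusters AMPA receptors, rose (0.39). Nrn1 did not pass (log2 fold change 0.28, SE 0.11, adjusted p = 0.104, edgeR).

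Of 20 upstream factors and kinases 3 rose, none fell and 17 did not pass (15% called, against 11.3% of all genes), with a median of 0.02. The SRF coactivator gene Mrtfa averaged 109.6 ± 4.74 CPM with allopregnanolone and 82.9 ± 5.39 CPM in untreated pups (SD, n = 5 each; log2 fold change 0.40, SE 0.05, adjusted p = 0.000855, edgeR), and Camk2a and the SRF partner gene Elk1 rose by log2 0.32 and 0.25. Mef2a did not pass (log2 fold change -0.18, SE 0.06, adjusted p = 0.0731, edgeR). Of 11 partners and inhibitors of the proteins 1 rose, 2 fell and 8 did not pass (27.3% called, against 11.3% of all genes), with a median of 0.02. Rxra, a nuclear receptor that pairs with Nr4a1, averaged 28.8 ± 1.88 CPM with allopregnanolone and 18.3 ± 1.05 CPM in untreated pups (SD, n = 5 each; log2 fold change 0.66, SE 0.07, adjusted p = 0.000153, edgeR) and passed in all 23 alternatives. Nab2, a corepressor of Egr1, Egr2 and Egr3, fell by 0.24 on the log2 scale, and Mapk8, a JNK kinase that Dusp1 dephosphorylates, fell by 0.31. Rxrb did not pass (log2 fold change 0.20, SE 0.07, adjusted p = 0.0686, edgeR).

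**Figure D5:**
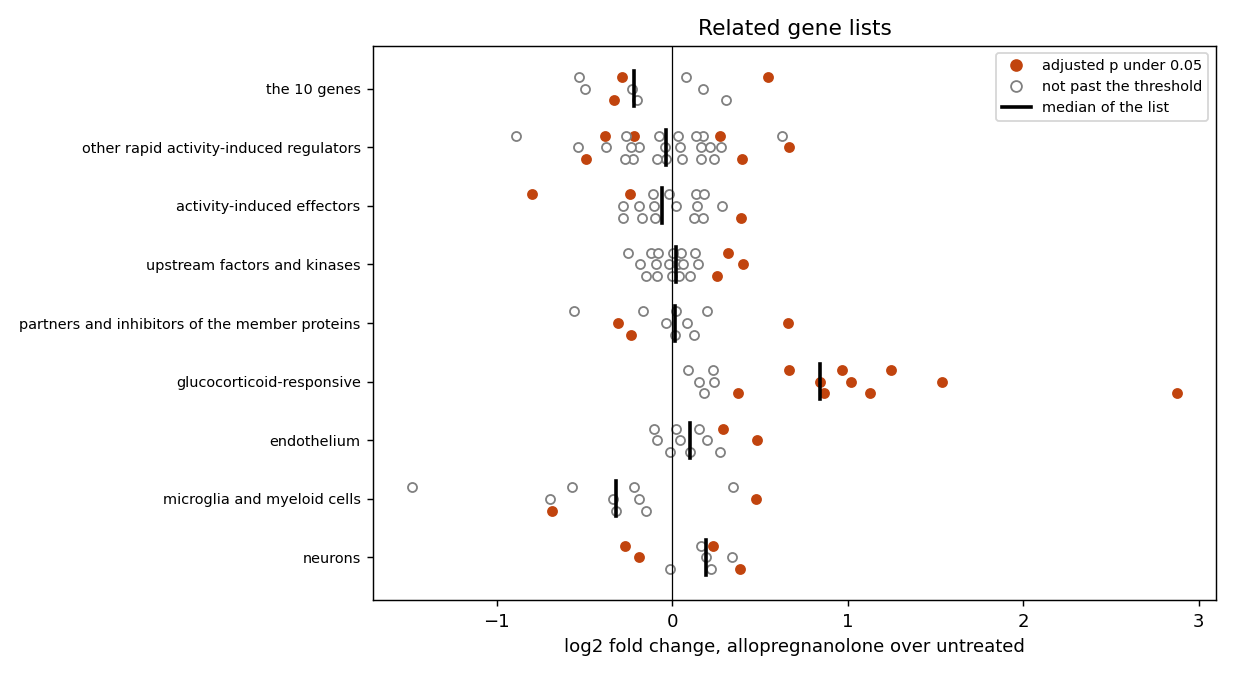
Log2 fold change, allopregnanolone over untreated, of each gene in 9 lists, with filled points past an adjusted p of 0.05 and a black bar at each list's median. The 10 genes and the 4 lists of their pathway spread to both sides of 0, and the glucocorticoid-responsive list lies to the right with a median of 0.84.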

How the data were processed

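Total RNA was purified by RNeasy Mini Plus columns and libraries came from a directional NEBNext Ultra II kit, per the labels' protocols. Partek and the mm10 build appear in the submitters' processing notes, while for the aligner, annotation and strand setting no source used here gives a name. The authors deposited 1 table of estimated counts (expected counts) for 55471 Ensembl identifiers. Its name calls the values normalized, but 86.8% to 87.6% of values above 0 were whole numbers exactly as written (no tolerance) and totals differed between libraries, so they were rounded and analysed as counts. GENCODE M21 (GRCm38) named 55230 identifiers.

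Genes with 10 or more counts in at least 5 of 10 libraries were kept, scaled by TMM (0.953 to 1.04) and tested by quasi-likelihood in edgeR 4.0.16 (R 4.3.3) with Benjamini-Hochberg adjustment over 17101 genes, two-sided, at 0.05. Fold changes are allopregnanolone over untreated. Alternatives numbered 23 and used limma 3.58.1 and DESeq2 1.42.0 besides edgeR; they covered scaling, filters, covariates and libraries left out. Levels between genes are CPM per kb of exon. On simulated data with 17101 genes for this comparison the test recovered 58% of 1.5-fold and 80% of 2-fold changes, with 8% of calls false. Those data had 100 genes changed at each fold and no shifts shared by the genes of a pup. Folds as small as those of Egr3, Nr4a3 and Klf4 were not simulated. Log2(CPM + 1) correlated at 0.990 to 0.994 between pups of a group. The labels call the samples separate mice; p-values measure the spread between these mice. Named genes are the 10, up to 4 with the smallest p from each list described, and the 5 most alike to Egr1, Nr4a3 and Klf4; exceptions are stated, and some genes that this rule names are left out of the text. The genes and lists were chosen with earlier results of these data known. Correlations between the genes are descriptions without a p; a permutation test of them, added after the values were seen, is not reported. Python 3.11.15 with matplotlib 3.10.9 made the figures.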

Additional observations from a re-analysis of the deposited data

Results flagged for a closer look

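In 7 of 68 groups of 5 libraries examined, 1 library stood far from the other 4 by Dixon's criterion, which chance meets in about 1 in 20 groups; the genes of a library are not independent of each other. Treated pup 7 was the high value for 5 EGR and NR4A genes. It had 422 CPM of Egr1 (the other treated pups 216 to 269), 8.73 CPM of Egr2 (2.72 to 4.12), 117 CPM of Egr3 (83.1 to 86.9), 73.8 CPM of Egr4 (38.1 to 46.0) and 83.2 CPM of Nr4a1 (55.6 to 63.1). Untreated pup 5 was the high value for 47.8 CPM of Nptx2 (the other untreated pups 32.4 to 34.7) and 64.3 CPM of Elk1 (51.9 to 54.4).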

How the results depend on the processing

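Scaling, count filters, the choice of test and the Y-linked covariate left 3 or 4 of the 10 genes called. No gene was called with the midbrain covariate (0), the endothelial covariate (0) or without the 3 libraries of another name prefix (0), and leaving out 1 library at a time gave 0 to 4. Over all genes, higher and lower calls numbered 113 and 52 with the midbrain covariate, 321 and 157 with the endothelial covariate and 76 and 23 without the 3 libraries; with library totals alone 1451 were lower, and the median of all genes moved to -0.06. Leaving out 1 library gave 645 to 1360 higher and 435 to 983 lower genes. Egr1 turned negative with the endothelial covariate (-0.10), without untreated pup 3 (-0.01), without treated pup 7 (-0.12) and without the 3 libraries (-0.20), and Arc without the 3 libraries (-0.26); the cause was not tested. Over the libraries left out in turn Egr1 ranged between -0.12 and 0.19. Egr3, Nr4a3 and Klf4 kept their direction in all 23 alternatives and missed the threshold in 12, 6 and 9. Fewer libraries also lower the power of a test. No paired analysis was possible because the groups share no mouse numbers.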
